A study of Mus musculus with 10 samples.

Results

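Cultures of a single cell line can differ in expression with no difference in genotype. To measure this, replicate 1 was compared with replicate 2 within each of 5 mouse embryonic stem cell (mESC) lines profiled by polyA RNA-Seq. All 10 libraries of the series entered this comparison, 5 of replicate 1 and 5 of replicate 2, and the groups were set by the replicate number in the sample names and not by any measured value.

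DaxxKO mESCs are *Daxx* -/- cells of the 129/SvEv strain, and DaxxWT mESCs are the same *Daxx* -/- cells carrying a wild-type *Daxx* transgene. H3.3KO mESCs are labelled as an H3.3 knockout on a mixed 129 x C57BL/6J background. H3.3WT and H3.3 L126A-L130A mESCs are H3.3KO cells carrying a transgene for wild-type H3.3 or for H3.3 with the L126A-L130A substitutions, so the *Daxx* deletion is shared by the first pair of lines (the *Daxx* lines below) and the labelled H3.3 knockout by the other 3 (the H3.3 lines). Transgenes were delivered by lentivirus under the constitutive EF1 promoter with puromycin selection. The second residue of the mutant is written differently in the column headers and in most of the study's text. Every line was kept feeder-free on gelatin in 2i+LIF medium, which holds the MEK inhibitor PD0325901, the GSK3 inhibitor CHIR99021 and leukemia inhibitory factor. DAXX is the histone chaperone that places H3.3 into heterochromatin together with ATRX. A figure legend of the study describes biological duplicates for each line, and neither it nor the methods say what a number shares across lines. What separates number 1 from number 2 (day, passage, plate or library batch) is not given in the sources used here. The p-values below measure only the spread between these cultures.

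In 2i+LIF, the MEK inhibitor keeps the ERK pathway low, so that its target genes (*Fos*, *Egr1*, *Myc*, *Spry4*) are weakly transcribed, and the GSK3 inhibitor keeps Wnt target genes active. These cultures nevertheless remain mixtures: single cells move in and out of a two-cell-like state marked by the *Zscan4* genes, drift towards primitive endoderm or towards the later epiblast, and respond to density, nutrients, oxygen and handling. Such programmes are therefore natural places to look for differences between cultures of the same line.

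The libraries held 15463625 to 21396585 expected counts each, and 13201 of 20325 genes reached at least 1 CPM (counts scaled to the library total) in at least 2 libraries. Levels below are normalised CPM (median-of-ratios scaling), given in the order DaxxKO, DaxxWT, H3.3KO, H3.3WT, H3.3 L126A-L130A, and differences are replicate 1 minus replicate 2 on the log2(normalised CPM + 1) scale. Log2 fold changes with a standard error (SE) come from the paired edgeR fit over the 5 lines, and counts of list members at an unadjusted p under 0.05 come from the same fit. *Daxx* was measured at 82.7, 207, 61.8, 62.4 and 102 CPM in replicate 1 and 71.9, 206, 61.4, 59.2 and 67.4 CPM in replicate 2. DaxxKO was thus above H3.3KO and H3.3WT in both replicates, and below H3.3 L126A-L130A in replicate 1. *H3f3a* was measured at 492, 487, 5.20, 3.62 and 5.30 CPM in replicate 1 and 377, 494, 10.9, 4.35 and 2.84 CPM in replicate 2. *H3f3b*, the other H3.3 gene, stood at 314, 117, 508, 204 and 389 CPM in replicate 1 and 375, 84.4, 719, 139 and 323 CPM in replicate 2. H3.3KO, which carries no transgene, thus held the highest *H3f3b* level of the 5 lines in both replicates. Neither *Daxx* nor *H3f3b* RNA checks its label here, and the lines are called by their labels. The stem cell markers *Pou5f1* (916 to 1313 CPM), *Nanog* (518 to 966 CPM) and *Sox2* (199.8 to 516 CPM) were present in all 10 libraries, whereas the fibroblast genes *Lum*, *Dcn* and *Col3a1* lay at or below 0.167 CPM. The whole list of 31 matrix and fibroblast genes, 19 of them tested, summed to between 2073 and 2814 CPM in replicate 1 and between 1987 and 3140 CPM in replicate 2, with no member at 0 in every library. Among the 5 lines, 4259 of 13201 genes (32.3%) differed (edgeR quasi-likelihood F test, adjusted p under 0.05, replicate number left out).

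The lines differed widely in how far their duplicate cultures lay apart. DaxxKO mESCs were the least alike: 347 genes (2.63% of genes tested) were at least 2-fold higher in replicate 1 and 972 (7.36%) at least 2-fold lower. H3.3WT mESCs were the most alike, with 11 genes (0.0833%) higher and 72 (0.545%) lower. Between these lay H3.3 L126A-L130A with 111 (0.841%) higher and 553 (4.19%) lower, DaxxWT with 80 (0.606%) and 213 (1.61%), and H3.3KO with 112 (0.848%) and 170 (1.29%). The biological coefficient of variation, the spread left after counting error, followed a similar order at 34.3% in DaxxKO, 25.2% in H3.3 L126A-L130A, 19.7% in DaxxWT, 17.1% in H3.3KO and 12.1% in H3.3WT. With 1 library against 1, these counts are descriptions with no test. In every line more genes were 2-fold lower than 2-fold higher in replicate 1. Weakly expressed genes made up most of this excess. At a mean of at least 10 CPM the counts were 256 against 313 in DaxxKO, 41 against 82 in DaxxWT, 49 against 45 in H3.3KO, 5 against 15 in H3.3WT and 45 against 215 in H3.3 L126A-L130A. Of all genes tested, 11245 were 2-fold apart in no line, 1440 in 1 line, 369 in 2, 129 in 3, 14 in 4 and 4 in all 5.

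**Figure D1:**
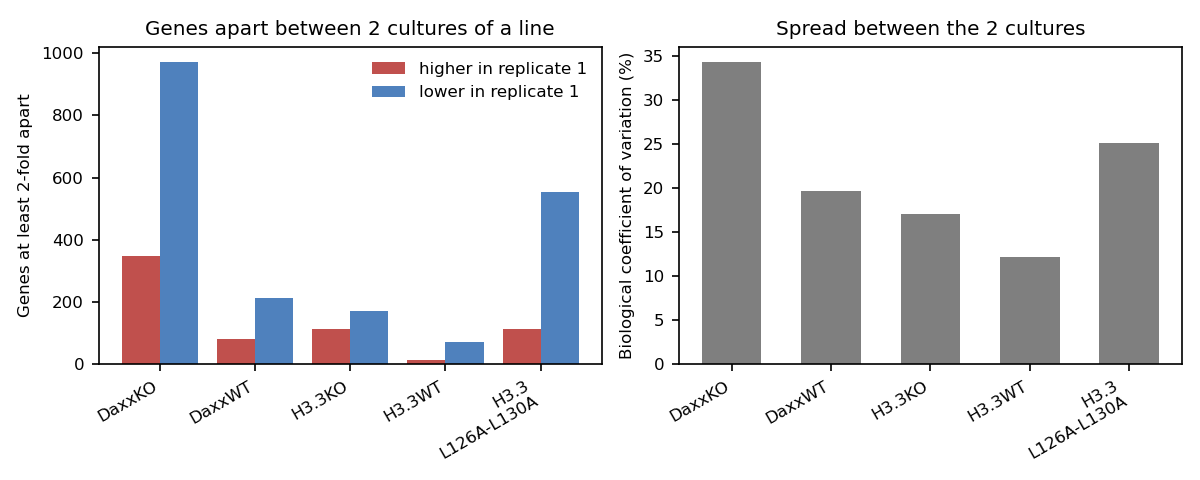
Left, number of genes at least 2-fold apart between replicate 1 and replicate 2 of each line, split by direction; right, biological coefficient of variation in percent between the 2 cultures of each line. DaxxKO has the tallest bars (347 higher, 972 lower, 34.3%) and H3.3WT the shortest (11 higher, 72 lower, 12.1%).

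The differences of some lines resembled each other. Across the 13201 genes, the difference in DaxxKO correlated with that in DaxxWT (Pearson's r = 0.57, Spearman's rho = 0.55) and in H3.3 L126A-L130A (r = 0.58, rho = 0.60), and DaxxWT with H3.3 L126A-L130A (r = 0.55, rho = 0.59). H3.3WT was linked more loosely to these lines (r = 0.27 to 0.42). The H3.3KO pair stood apart, with r = -0.04 against DaxxKO, -0.01 against DaxxWT, 0.07 against H3.3 L126A-L130A and 0.28 against H3.3WT. These values run over genes, not over replicates, so no p is given. The differences of 2 lines have no library in common. A gene was higher in replicate 1 of all 5 lines in 1870 cases (14.2%) and lower in all 5 in 1543 (11.7%).

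**Figure D2:**
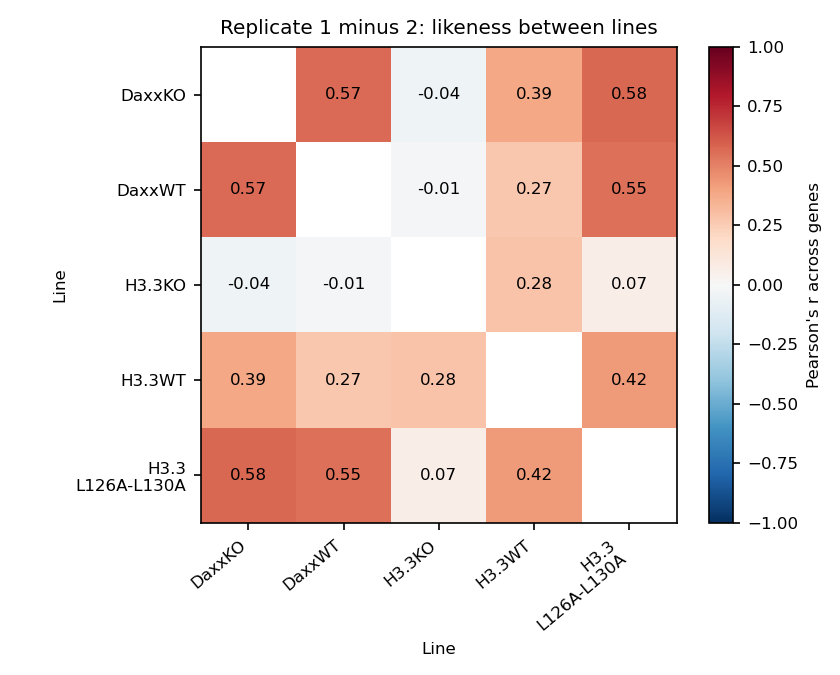
Pearson's r across 13201 genes between the replicate differences (replicate 1 minus 2) of each pair of lines, coloured from -1 to 1. The 3 highest values join DaxxKO, DaxxWT and H3.3 L126A-L130A (0.55 to 0.58), and the H3.3KO row is near 0 apart from 0.28 with H3.3WT.

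Fitted over the 5 pairs at once, no gene (0%) passed an adjusted p of 0.05 in edgeR's quasi-likelihood test, which had 4 residual degrees of freedom; the smallest adjusted p was 0.0522. At an unadjusted p under 0.05, 2036 genes (15.4%) were higher and 1784 (13.5%) lower in replicate 1. Other tools drew the line elsewhere on the same pairs: DESeq2 called 1382 genes at an adjusted p under 0.05 (705 higher, 677 lower) and limma 1. The count also turned on a single line. Without the H3.3KO pair, edgeR called 696 genes (5.27%) higher and 708 (5.36%) lower in replicate 1, whereas leaving out DaxxKO, DaxxWT or H3.3 L126A-L130A gave 0 and leaving out H3.3WT gave 4. The scaling and the filter moved it too: over all 5 pairs edgeR called 43 genes with library size alone, 264 with no filter and 16 at a mean of at least 10 CPM. Every gene described below as higher or lower over the 5 lines is a difference that edgeR did not call over all pairs with median-of-ratios scaling and the 1 CPM filter, and its adjusted p from that fit is given. Of the 50 genes whose fold change is given below, 45 passed an adjusted p of 0.05 in DESeq2. In edgeR without the H3.3KO pair 40 did so, and none changed direction in either fit. Over all genes tested, DESeq2 called 1382, and edgeR without that pair called 696 higher and 708 lower. The 50 genes were named for a small p, for a wide difference or after their values were seen. Both fits reuse the libraries in which these genes were chosen, so the counts of 45 and 40 are no independent check of them.

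The proteasome, the protease complex that degrades ubiquitin-tagged proteins, had the largest share of members on 1 side among 29 gene lists. Of its 38 tested subunits, 31 were higher in replicate 1 at an unadjusted p under 0.05 and 0 lower, against 15.4% and 13.5% of all genes. Well expressed genes leaned to the same side, with 1934 higher and 943 lower of the 9120 genes at a mean of at least 10 CPM. The median difference of the proteasome was 0.55, 0.24, 0.07, 0.17 and 0.30, against medians between -0.0002 and 0.03 over all genes. With 1 line left out at a time, between 22 and 31 subunits had an unadjusted p under 0.05 in this direction, and without the H3.3KO pair 1 had it in the other. *Psma5*, an α subunit of the catalytic core, was measured at 249, 286, 170.1, 189 and 191 CPM in replicate 1 and 142, 208, 138, 156 and 142 CPM in replicate 2. Its replicate 1 was the higher library in each line, with a log2 fold change of 0.45 ± 0.09 (SE, edgeR adjusted p = 0.0682). *Psmb3*, a β subunit, had a log2 fold change of 0.34 ± 0.07 (SE, edgeR adjusted p = 0.0682), and *Psmd2*, of the regulatory cap, had a log2 fold change of 0.32 ± 0.08 (SE, edgeR adjusted p = 0.0767). The differences were small, and no line had more than 2 subunits at least 2-fold apart. These subunits and the members of several lists below were named after their values were seen.

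Other housekeeping lists were read against the same background, 15.4% of all genes higher and 13.5% lower, and 1934 higher and 943 lower of the 9120 well expressed genes. Among 47 genes of DNA replication and S phase, 18 were higher in replicate 1 at an unadjusted p under 0.05 and 0 lower, with list medians of 0.30, 0.09, 0.18, 0.10 and 0.17. *Pcna*, the sliding clamp of DNA polymerases, was measured at 553, 672, 544, 559 and 592 CPM in replicate 1 and 352, 523, 457, 449.8 and 484 CPM in replicate 2. It was higher in replicate 1 of every line, with a log2 fold change of 0.37 ± 0.08 (SE, edgeR adjusted p = 0.0689). *Slbp*, which binds histone mRNAs in S phase, had a log2 fold change of 0.30 ± 0.07 (SE, edgeR adjusted p = 0.074). Of 44 mitosis genes 15 were higher and 1 lower. Of 80 nuclear-encoded genes of the respiratory chain 22 were higher and 2 lower. Their line medians were 0.15, 0.02, 0.10, 0.07 and 0.13, against 0.14, 0.06, 0.01, 0.04 and 0.08 for the well expressed genes. *Atp5g1*, a subunit of ATP synthase, had a log2 fold change of 0.36 ± 0.08 (SE, edgeR adjusted p = 0.0714). With library size alone as the scaling, the median over all genes moved to -0.10, -0.08, -0.01, -0.06 and -0.11. On that scale the DaxxWT medians were -0.08 for the respiratory chain and -0.01 for S phase genes, and the H3.3 L126A-L130A median of the mitosis genes was -0.03. The 81 cytosolic ribosomal protein genes showed no such shift with median-of-ratios scaling, with 3 higher, 1 lower and medians between -0.09 and 0.06. With library size alone their medians were -0.24, -0.04, -0.02, -0.04 and -0.10.

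The chaperones of the heat shock response were higher in 9 of 17 cases at an unadjusted p under 0.05 and lower in 0, against 15.4% and 13.5% of all genes. *Hspd1*, the mitochondrial chaperonin, was measured at 1537, 1337, 1230.2, 1324 and 1662 CPM in replicate 1 and 845, 1076, 1121, 1055 and 1041 CPM in replicate 2. Replicate 1 was the higher library of every pair, with a log2 fold change of 0.46 ± 0.11 (SE, edgeR adjusted p = 0.074). *Hspa8*, the constitutive cytosolic HSP70, lay at 7528, 7755, 5034, 5354 and 6819.9 CPM in replicate 1 and 3019, 5645, 5831, 4641 and 5126 CPM in replicate 2. The H3.3KO pair of *Hspa8* pointed the other way, and over the 5 lines it had a log2 fold change of 0.43 ± 0.18 (SE, edgeR adjusted p = 0.153). Cholesterol synthesis genes were higher in 7 of 24 cases and lower in 0 by the same measure. Both lists are well expressed, and of the 9120 genes at a mean of at least 10 CPM 1934 were higher and 943 lower. The cholesterol medians were 0.17, -0.21, 0.39, 0.12 and 0.36, and DaxxWT was the line that went against the rest. In the interaction fit described below, 9 of the 24 had a difference larger in the H3.3 lines at an unadjusted p under 0.05 and 0 in the *Daxx* lines, against 3.49% and 4.65% of all genes, with a smallest adjusted p of 0.318.

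ERK targets and immediate early genes, which respond within minutes to growth factors and to handling, lay further apart than most genes in each line. The median size of their differences was 0.76, 0.59, 0.31, 0.26 and 0.51, against 0.37, 0.22, 0.18, 0.16 and 0.27 for all genes. The signed medians were smaller, at 0.16, 0.43, -0.01, 0.16 and 0.39, and in H3.3KO 14 members were higher and 15 lower. For members at a mean of at least 10 CPM the signed medians were 0.46, 0.55, 0.02, 0.23 and 0.50, so that of H3.3KO changed sign. Of 29 tested members, 12 were higher in replicate 1 at an unadjusted p under 0.05 and 3 lower, against 15.4% and 13.5% of all genes. At least 2-fold, 9 were higher and 2 lower in DaxxKO, 7 and 1 in DaxxWT, 4 and 1 in H3.3KO, 2 and 0 in H3.3WT, and 7 and 1 in H3.3 L126A-L130A. The shares of all genes higher and lower were 2.63% and 7.36% in DaxxKO, 0.606% and 1.61% in DaxxWT, 0.848% and 1.29% in H3.3KO, 0.0833% and 0.545% in H3.3WT, and 0.841% and 4.19% in H3.3 L126A-L130A. *Fosb*, a partner of JUN in the AP-1 transcription factor, was measured at 7.11, 3.28, 13.2, 9.60 and 14.2 CPM in replicate 1 and 0.547, 0.112, 0.062, 3.48 and 0.328 CPM in replicate 2. Replicate 1 was the higher library in each line, and 4 of the 5 replicate 1 libraries exceeded the highest replicate 2 library. It had a log2 fold change of 3.97 ± 0.67 (SE, edgeR adjusted p = 0.0672). *Fos*, the founding member of the AP-1 family, was measured at 35.5, 20.2, 82.1, 78.7 and 108 CPM in replicate 1 and 18.7, 6.40, 16.1, 59.97 and 30.5 CPM in replicate 2. *Fos* had a log2 fold change of 1.42 ± 0.26 (SE, edgeR adjusted p = 0.0682). *Myc*, which drives growth and ribosome production, was measured at 5.39, 9.40, 4.24, 2.61 and 10.3 CPM in replicate 1 and 0.821, 2.25, 3.04, 0.637 and 1.75 CPM in replicate 2. *Myc* had a log2 fold change of 1.94 ± 0.33 (SE, edgeR adjusted p = 0.0682).

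The members differed among themselves. *Egr1*, a zinc finger factor induced through ERK, was measured at 94.0, 70.9, 64.5, 20.6 and 14.0 CPM in replicate 1 and 1.64, 1.85, 3.54, 23.8 and 3.72 CPM in replicate 2. The H3.3WT pair was slightly reversed while DaxxKO, DaxxWT and H3.3KO lay more than 10-fold apart. *Egr1* had a log2 fold change of 3.34 ± 0.86 (SE, edgeR adjusted p = 0.0796). *Spry4*, an ERK feedback inhibitor, stood at 3.66, 16.6, 5.77, 7.69 and 54.1 CPM in replicate 1 and 1.26, 3.37, 7.69, 4.11 and 13.1 CPM in replicate 2. The highest library was replicate 1 of H3.3 L126A-L130A, and the H3.3KO pair was slightly reversed. *Spry4* had a log2 fold change of 1.30 ± 0.37 (SE, edgeR adjusted p = 0.0871). *Ier5*, an immediate early gene, pointed the other way, with 8.99, 5.02, 4.92, 4.07 and 3.80 CPM in replicate 1 and 16.1, 6.18, 7.75, 7.88 and 5.74 CPM in replicate 2. *Ier5* had a log2 fold change of -0.67 ± 0.16 (SE, edgeR adjusted p = 0.0751). *Dusp4*, an ERK phosphatase, lay at 3.94, 4.18, 3.62, 3.62 and 3.46 CPM in replicate 1 and 20.6, 7.42, 4.47, 3.77 and 5.36 CPM in replicate 2. It was likewise lower in replicate 1 of each line, with a log2 fold change of -0.85 ± 0.32 (SE, edgeR adjusted p = 0.134).

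The promoter stretches of *Fos* and *Fosb* are shown because both encode AP-1 factors described above and both hold the motif searched for. Each is the 110 bases before the RefSeq start (GRCm38.p6), with capitals marking TGACG, the core of the cyclic AMP response element, searched on both strands over 250 bases before to 50 after the start. The *Fos* stretch lies at chr12:85473780-85473889 on the plus strand and the *Fosb* stretch at chr7:19310046-19310155 on the minus strand.
Fos: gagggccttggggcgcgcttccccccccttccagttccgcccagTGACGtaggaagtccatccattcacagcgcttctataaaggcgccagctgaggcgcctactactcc
Fosb: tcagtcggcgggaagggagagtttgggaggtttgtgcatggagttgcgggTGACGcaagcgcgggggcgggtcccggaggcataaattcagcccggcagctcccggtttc
The promoter of *Jun*, which encodes a partner of these factors, was searched too and held no TGACG. Promoters were found for 21 of the list's tested members and for 9407 genes tested in all. TGACG occurred in 11 of the 21 (52.4%) and in 34.3% of the 9407, and the CArG box, the site bound by SRF, in 3 of 21 (14.3%) and in 1.54%. The 3 with a CArG box were *Dusp5*, *Srf* and *Zfp36*, and neither *Fos* nor *Fosb* held one in this window. TGACNNNGC, the core of the antioxidant response element, was searched the same way in the proteasome promoters and occurred in 5 of 31 (16.1%) and in 17.2% of the 9407. A match is a description of these letters only.

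**Figure D3:**
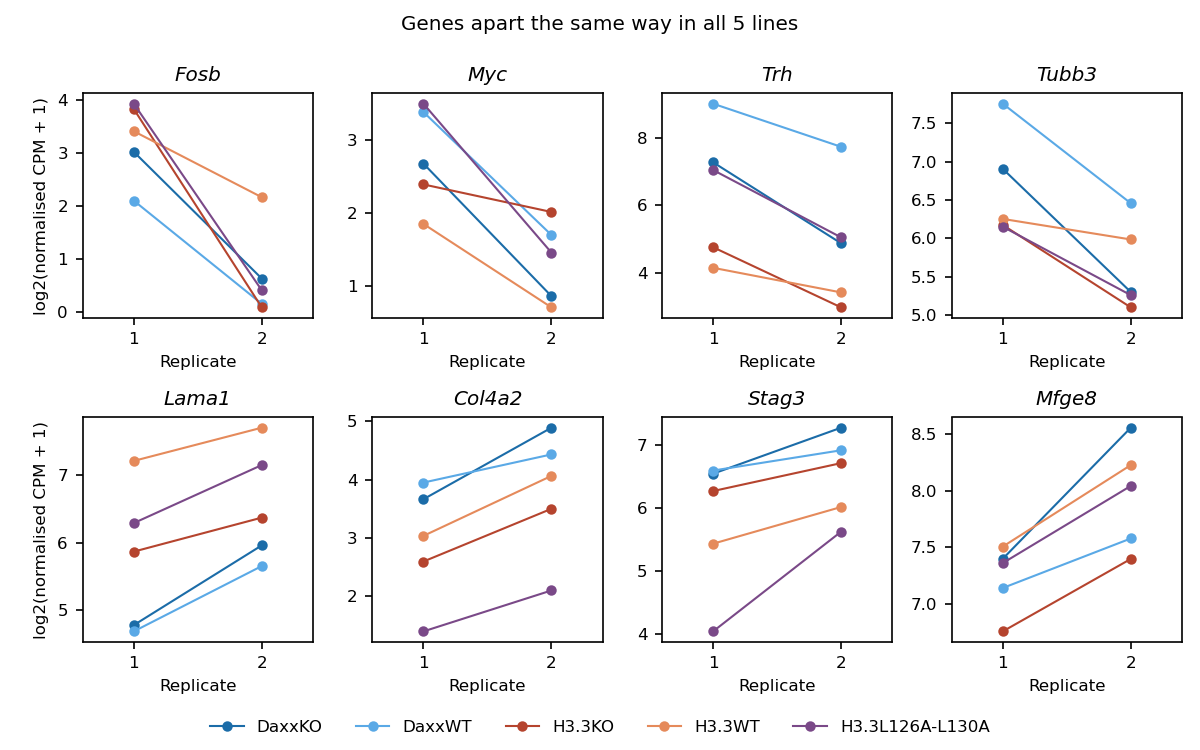
Level of 8 genes, as log2(normalised CPM + 1), in replicate 1 and replicate 2 of each of the 5 lines, 1 line per colour. *Fosb*, *Myc*, *Trh* and *Tubb3* slope down from replicate 1 to 2 in every line, and *Lama1*, *Col4a2*, *Stag3* and *Mfge8* slope up.

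Wnt targets, which the GSK3 inhibitor keeps active, were higher in 6 of 13 cases at an unadjusted p under 0.05 and lower in 1, against 15.4% and 13.5% of all genes. Their medians were 0.20, 0.39, 0.17, 0.14 and 0.45, and 0.55, 0.29, 0.09, 0.05 and 0.38 for members at a mean of at least 10 CPM. *Ccnd1*, a G1 cyclin, was measured at 158, 235, 25.8, 31.8 and 82.8 CPM in replicate 1 and 102, 144, 21.5, 26.6 and 36.7 CPM in replicate 2. *Ccnd1* had a log2 fold change of 0.62 ± 0.13 (SE, edgeR adjusted p = 0.0689). *Notum*, a secreted Wnt inhibitor, lay at 15.1, 22.2, 2.94, 6.11 and 9.85 CPM in replicate 1 and 3.50, 8.60, 4.40, 5.10 and 2.68 CPM in replicate 2. The H3.3KO pair of *Notum* was the other way round, and the gene had a log2 fold change of 1.04 ± 0.37 (SE, edgeR adjusted p = 0.12).

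Of the 10 genes with the smallest p among those higher in replicate 1, *Trh* and *Gap43* are best known from neurons. *Trh*, which encodes thyrotropin-releasing hormone, was measured at 153, 511, 26.2, 16.9 and 131 CPM in replicate 1 and 28.5, 211, 6.95, 9.79 and 32.2 CPM in replicate 2. It had the smallest p in this direction and lay at least 2-fold apart in 4 lines, with a log2 fold change of 1.71 ± 0.21 (SE, edgeR adjusted p = 0.0522). *Gap43*, a growth cone protein, stood at 8.49, 15.7, 6.05, 2.67 and 2.85 CPM in replicate 1 and 1.97, 6.85, 1.05, 0.695 and 0.984 CPM in replicate 2. *Gap43* had a log2 fold change of 1.82 ± 0.24 (SE, edgeR adjusted p = 0.0522). *Tubb3*, neuronal β-tubulin, was measured at 119, 215, 71.3, 75.4 and 70.2 CPM in replicate 1 and 38.4, 87.0, 33.3, 62.4 and 37.3 CPM in replicate 2. *Tubb3* had a log2 fold change of 1.05 ± 0.17 (SE, edgeR adjusted p = 0.0635). Of 13 tested neuroectoderm markers, however, 3 were higher at an unadjusted p under 0.05 and 1 lower, against 15.4% and 13.5% of all genes. The one on the lower side was the neural progenitor factor *Sox1*, at 2.22, 2.34, 2.43, 6.995 and 5.37 CPM in replicate 1 and 3.17, 4.16, 7.50, 9.73 and 9.45 CPM in replicate 2. It had a log2 fold change of -0.85 ± 0.21 (SE, edgeR adjusted p = 0.0776). *Vim*, an intermediate filament protein of mesenchymal and progenitor cells, was measured at 146, 621, 141, 123 and 509 CPM in replicate 1 and 46.1, 315, 97.7, 84.4 and 193 CPM in replicate 2. *Vim* had a log2 fold change of 1.02 ± 0.17 (SE, edgeR adjusted p = 0.0647).

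Formative and primed epiblast genes were higher in 9 of 24 cases at an unadjusted p under 0.05 and lower in 1, against 15.4% and 13.5% of all genes. The medians were 0.22, 0.25, 0.03, 0.11 and 0.32, and that of DaxxKO became 0.98 for members at a mean of at least 10 CPM. *Dnmt3b*, a de novo DNA methyltransferase, was measured at 86.5, 145, 62.3, 52.5 and 281 CPM in replicate 1 and 43.3, 83.2, 58.8, 50.9 and 98.6 CPM in replicate 2. *Dnmt3b* had a log2 fold change of 0.70 ± 0.20 (SE, edgeR adjusted p = 0.0903). *Lefty1*, a Nodal antagonist, stood at 24.5, 20.2, 23.7, 9.41 and 23.4 CPM in replicate 1 and 2.24, 16.9, 2.11, 5.50 and 8.31 CPM in replicate 2. The widest gaps were in DaxxKO and H3.3KO, and *Lefty1* had a log2 fold change of 1.80 ± 0.49 (SE, edgeR adjusted p = 0.0834). Naive pluripotency genes were split, 7 higher and 5 lower of 28. In bulk RNA, fewer cells in a state and less RNA per cell cannot be told apart, which holds for all of these lists.

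The 10 genes with the smallest p in this direction also included enzymes of glycolysis. The glycolytic enzyme *Pkm2* had a log2 fold change of 0.54 ± 0.07 (SE, edgeR adjusted p = 0.0522), and *Eno1*, also of glycolysis, had a log2 fold change of 0.60 ± 0.09 (SE, edgeR adjusted p = 0.0591). *Timm8a1*, a chaperone of mitochondrial protein import, had a log2 fold change of 0.56 ± 0.07 (SE, edgeR adjusted p = 0.0522). *Kirrel2*, a membrane protein, had a log2 fold change of 0.96 ± 0.14 (SE, edgeR adjusted p = 0.0591). The rule also named *Phf15* (log2 fold change 0.65 ± 0.09 SE, edgeR adjusted p = 0.0522), *Isy1* (log2 fold change 0.64 ± 0.10 SE, edgeR adjusted p = 0.0591) and the weakly expressed *Gm606* (log2 fold change 3.35 ± 0.53 SE, edgeR adjusted p = 0.0591) on this side.

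On the other side, primitive endoderm markers were lower in replicate 1 in 12 of 21 tested cases at an unadjusted p under 0.05 and higher in 0, against 13.5% and 15.4% of all genes. The medians were -0.91, -0.22, -0.46, -0.32 and -0.29, and for members at a mean of at least 10 CPM -0.87, -0.33, -0.39, -0.35 and -0.49. With 1 line left out at a time, between 8 and 12 were lower. Weakly expressed genes as a whole leaned to this side. At an unadjusted p under 0.05, 1934 of the 9120 genes at a mean of at least 10 CPM were higher and 943 lower. Over all genes tested these counts were 2036 and 1784. The primitive endoderm list itself had a median level of 2.61 CPM. The members with the smallest p encode the basement membrane. *Lama1*, laminin α1, was measured at 26.5, 24.8, 57.4, 147 and 77.3 CPM in replicate 1 and 61.3, 49.4, 81.8, 207 and 141 CPM in replicate 2. Replicate 2 was the higher library in each line, with a log2 fold change of -0.81 ± 0.12 (SE, edgeR adjusted p = 0.0561). *Col4a2*, a collagen IV chain, was measured at 11.7, 14.4, 5.04, 7.19 and 1.63 CPM in replicate 1 and 28.6, 20.6, 10.3, 15.7 and 3.28 CPM in replicate 2. *Col4a2* had a log2 fold change of -0.99 ± 0.15 (SE, edgeR adjusted p = 0.0591). The transcription factors that define the lineage had low levels: *Gata4* lay at 2.04 to 5.63 CPM, *Sox17* at 0.506 to 3.17 CPM, and *Gata6* at 0.5, 0.249, 1.07, 0.89 and 0.883 CPM in replicate 1 and 3.94, 0.506, 2.54, 1.68 and 0.874 CPM in replicate 2. *Gata6* had a log2 fold change of -1.25 ± 0.43 (SE, edgeR adjusted p = 0.111). The summed level of the 27 markers was between 1266 and 1904 CPM in replicate 1 and between 1539 and 2479 CPM in replicate 2, and no marker was at 0 in every library. Only DaxxKO held more than 1 member at least 2-fold apart, 8 lower against 7.36% of all genes there, including *Apoe* (247, 390.2, 649.7, 409.5 and 957 CPM in replicate 1 and 823, 487, 897, 428 and 1343 CPM in replicate 2). The part of differentiated cells in these values was not tested.

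Germline and meiosis genes, which are partly active in 2i mESCs, were lower in replicate 1 in 15 of 36 cases at an unadjusted p under 0.05 and higher in 1, against 13.5% and 15.4% of all genes, with medians of -0.37, -0.33, -0.12, -0.13 and -0.61, of which that of H3.3KO became 0.02 for members at a mean of at least 10 CPM. *Smc1b*, a meiotic cohesin subunit, was measured at 54.2, 6.17, 15.8, 9.28 and 1.63 CPM in replicate 1 and 88.9, 12.02, 26.4, 15.9 and 4.10 CPM in replicate 2. *Smc1b* had a log2 fold change of -0.86 ± 0.12 (SE, edgeR adjusted p = 0.0522). *Stag3*, another meiotic cohesin subunit, was measured at 92.0, 95.3, 75.9, 42.2 and 15.5 CPM in replicate 1 and 153, 119, 104, 63.6 and 48.3 CPM in replicate 2. *Stag3* had a log2 fold change of -0.72 ± 0.17 (SE, edgeR adjusted p = 0.074). H3.3 L126A-L130A had the widest gaps: 11 of the 36 were at least 2-fold lower in its replicate 1, against 4.19% of all genes there. *Gpat2*, a mitochondrial protein of the piRNA pathway, stood at 51.3, 48.5, 19.3, 13.2 and 1.22 CPM in replicate 1 and 67.0, 57.98, 35.0, 22.4 and 6.50 CPM in replicate 2. *Gpat2* had a log2 fold change of -0.76 ± 0.22 (SE, edgeR adjusted p = 0.0915). *Mael*, also of the piRNA pathway, stood at 16.2, 12.3, 34.8, 14.7 and 3.26 CPM in replicate 1 and 37.9, 16.3, 36.4, 14.3 and 13.6 CPM in replicate 2. Its H3.3WT pair was level, and *Mael* had a log2 fold change of -0.69 ± 0.28 (SE, edgeR adjusted p = 0.149). In DaxxKO 9 were 2-fold lower, against 7.36% of all genes there. One of them was *Sycp3*, of the synaptonemal complex, at 3.11, 5.52, 55.2, 18.2 and 3.60 CPM in replicate 1 and 17.4, 6.97, 42.8, 17.3 and 11.6 CPM in replicate 2. The H3.3KO and H3.3WT pairs of *Sycp3* were reversed, and the gene had a log2 fold change of -0.72 ± 0.39 (SE, edgeR adjusted p = 0.246).

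Lysosomal genes were lower in 12 of 32 cases at an unadjusted p under 0.05 and higher in 1, against 13.5% and 15.4% of all genes, with medians of -0.59, -0.09, -0.12, -0.02 and -0.31. For members at a mean of at least 10 CPM the DaxxWT and H3.3WT medians became 0.03 and 0.04. *Psap*, the precursor of the saposins, was measured at 316, 349, 329.9, 479.8 and 441 CPM in replicate 1 and 565, 439, 454, 575 and 589 CPM in replicate 2. It was lower in replicate 1 of each line, with a log2 fold change of -0.46 ± 0.09 (SE, edgeR adjusted p = 0.0682). *Ctsb*, a cysteine protease, had a log2 fold change of -0.43 ± 0.10 (SE, edgeR adjusted p = 0.0748). In DaxxKO 7 lay at least 2-fold lower, against 7.36% of all genes there. *Hexa*, a subunit of β-hexosaminidase, was measured at 40.6, 55.2, 92.4, 95.6 and 84.5 CPM in replicate 1 and 131, 80.4, 116, 92.2 and 145 CPM in replicate 2. The gap was widest in DaxxKO, and *Hexa* had a log2 fold change of -0.65 ± 0.21 (SE, edgeR adjusted p = 0.102). Among the 10 genes with the smallest p on this side were some outside these lists. *2410076I21Rik*, of no stated function, was measured at 27.0, 10.1, 8.54, 10.9 and 0.815 CPM in replicate 1 and 56.5, 22.4, 19.8, 27.9 and 4.26 CPM in replicate 2, with a log2 fold change of -1.32 ± 0.17 (SE, edgeR adjusted p = 0.0522). *Cpe*, a carboxypeptidase that processes peptide hormones, had a log2 fold change of -1.09 ± 0.14 (SE, edgeR adjusted p = 0.0522). *Mfge8*, which bridges dying cells to phagocytes, was measured at 168, 139.9, 107, 181 and 163 CPM in replicate 1 and 375, 189.9, 167, 298 and 262 CPM in replicate 2. Replicate 2 was higher in every line, with a log2 fold change of -0.73 ± 0.10 (SE, edgeR adjusted p = 0.0522). *Syne2*, a nuclear envelope protein, had a log2 fold change of -0.58 ± 0.08 (SE, edgeR adjusted p = 0.0522). Further genes named by the rule were *Pramef12* (log2 fold change -0.73 ± 0.10 SE, edgeR adjusted p = 0.0522) and *D4Wsu53e* (log2 fold change -0.75 ± 0.10 SE, edgeR adjusted p = 0.0522) on this side. *Mmp2*, a matrix protease, stood at 21.9, 7.76, 7.69, 8.27 and 3.53 CPM in replicate 1 and 90.1, 14.8, 7.88, 14.4 and 10.4 CPM in replicate 2. *Mmp2* had a log2 fold change of -1.09 ± 0.26 (SE, edgeR adjusted p = 0.0751).

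**Figure D4:**
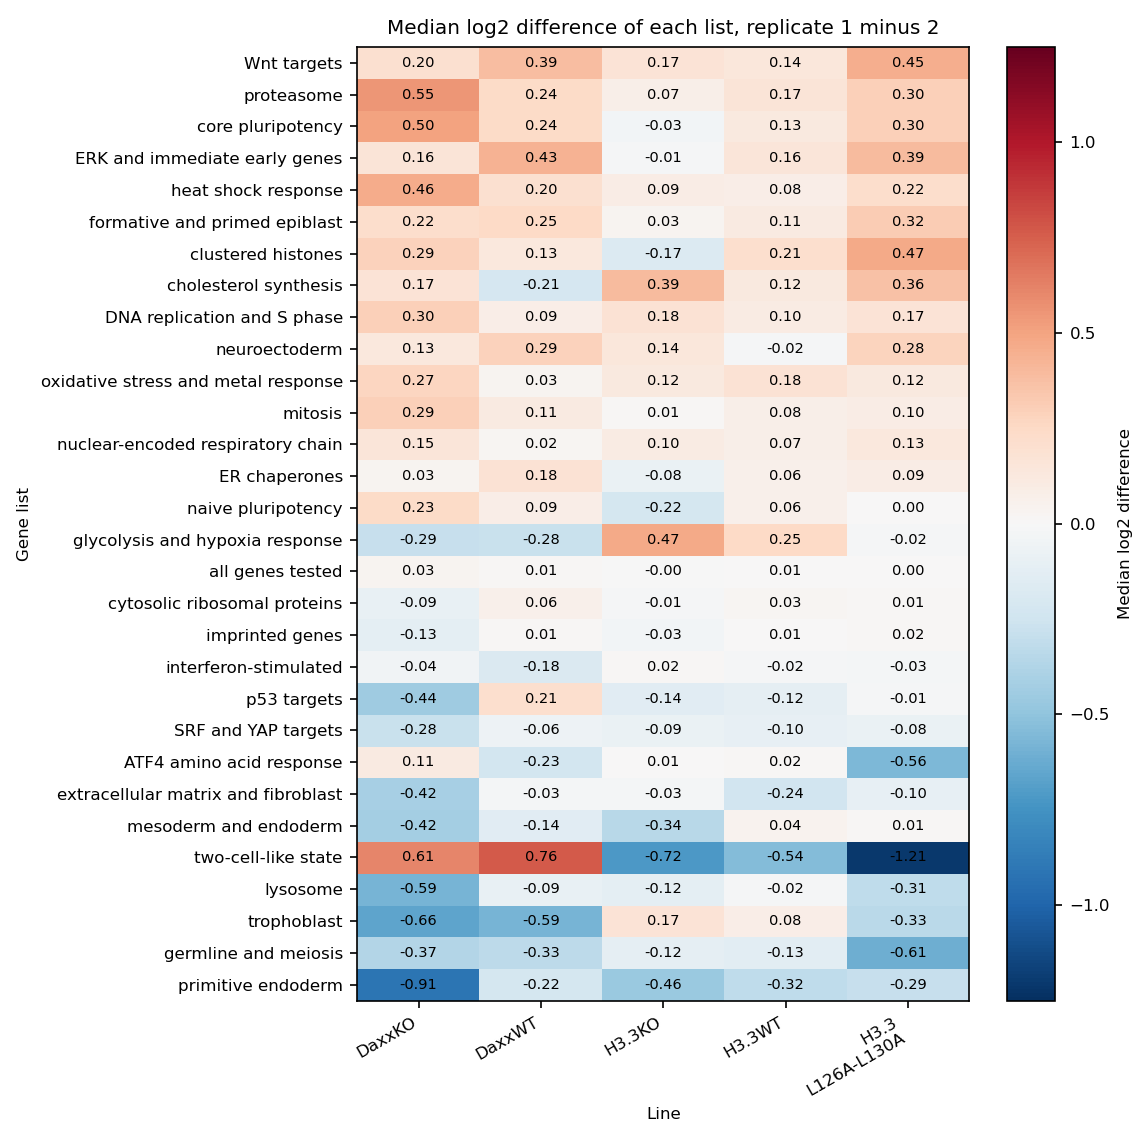
Median log2 difference (replicate 1 minus 2) of the tested members of 29 gene lists and of all genes tested (rows) in each line (columns). The proteasome and Wnt rows are above 0 in all 5 lines, the primitive endoderm and germline rows below 0, and the two-cell-like row runs from 0.76 in DaxxWT to -1.21 in H3.3 L126A-L130A.

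Some programmes differed between cultures in opposite ways. The genes of the two-cell-like state, a rare and transient state of mESCs that resembles the early cleavage embryo, had medians of 0.61 and 0.76 in DaxxKO and DaxxWT and of -0.72, -0.54 and -1.21 in H3.3KO, H3.3WT and H3.3 L126A-L130A. Of 23 tested members, 6 and 10 were 2-fold higher in replicate 1 of the *Daxx* lines and 0 lower, whereas 5, 4 and 12 were 2-fold lower in the H3.3 lines and 0 higher. For all genes these shares were 2.63% and 0.606% higher in the *Daxx* lines and 1.29%, 0.545% and 4.19% lower in the H3.3 lines. The size of the medians depended on the filter and on the pseudocount. At a mean of at least 10 CPM they were 0.95, 1.63, -0.44, -0.50 and -2.07, and at a pseudocount of 0.1 CPM 0.89, 1.63, -0.95, -0.60 and -2.85, with the same direction in each line. *Zscan4f*, a telomere-linked factor that marks the state, was measured at 20.1, 26.0, 53.6, 50.4 and 0.272 CPM in replicate 1 and 5.25, 2.47, 74.1, 73.1 and 14.0 CPM in replicate 2. *Zscan4c* was measured at 12.4, 19.8, 29.9, 29.4 and 1.09 CPM in replicate 1 and 2.79, 2.25, 36.2, 44.4 and 7.21 CPM in replicate 2. *Gm4340* was measured at 24.3, 40.5, 70.4, 83.6 and 1.49 CPM in replicate 1 and 11.8, 6.12, 136, 142 and 29.9 CPM in replicate 2. Replicate 1 of H3.3 L126A-L130A held the lowest level of all 3 genes, and several members belong to multicopy families whose reads the counting can split, so single genes are uncertain. The summed level of the 27 genes in the table was 336 and 192 CPM in replicates 1 and 2 of DaxxKO, 366 and 227 in DaxxWT, 616 and 798 in H3.3KO, 649.9 and 774 in H3.3WT and 347 and 365 in H3.3 L126A-L130A, which points the same way in each line as the medians. *Gm13043* was close to absent from the *Daxx* lines, at 0, 0, 9.62, 1.14 and 0.272 CPM in replicate 1 and 0.11, 0.0562, 28.9, 16.4 and 7.27 CPM in replicate 2.

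Whether the replicate difference itself differed between the 2 *Daxx* lines and the 3 H3.3 lines was tested with an interaction term, added after the data were seen. edgeR called 1 gene of 13201 at an adjusted p under 0.05 (0.00758%), *Rps27*, which shares reads with a near-identical copy and is described below. At an unadjusted p under 0.05 the difference was larger in the *Daxx* lines for 614 genes (4.65%) and larger in the H3.3 lines for 461 (3.49%). For the two-cell-like list these counts were 14 and 0 of 23 members, with a smallest adjusted p of 0.251, so no single member passed the adjusted threshold.

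Glycolytic enzymes and hypoxia-responsive genes divided the lines in another way, with medians of -0.29, -0.28, 0.47, 0.25 and -0.02. In the interaction fit 13 of 36 members had an unadjusted p under 0.05, all with a difference larger in the H3.3 lines and a smallest adjusted p of 0.251, against 3.49% of all genes. The summed level of the list was higher in replicate 1 of every line. It was 20221 and 18380 CPM in replicates 1 and 2 of DaxxKO, 19729 and 18480 in DaxxWT, 16565 and 12468 in H3.3KO, 16534 and 12898 in H3.3WT and 22076 and 18648 in H3.3 L126A-L130A, so that sums and medians differed in sign in DaxxKO, DaxxWT and H3.3 L126A-L130A. For members at a mean of at least 10 CPM the H3.3 L126A-L130A median was 0.05. *Slc16a3*, the lactate exporter, was measured at 42.5, 12.5, 63.0, 36.1 and 47.8 CPM in replicate 1 and 66.5, 41.3, 7.13, 20.0 and 44.0 CPM in replicate 2. In H3.3KO its replicate 1 was far the higher library and in both *Daxx* lines the lower one. *Bnip3*, a mitophagy receptor induced by HIF1, stood at 37.9, 22.3, 45.8, 26.8 and 52.9 CPM in replicate 1 and 62.2, 66.1, 13.7, 21.1 and 69.7 CPM in replicate 2. *Tpi1*, triosephosphate isomerase, was measured at 456, 439.7, 511, 411 and 722 CPM in replicate 1 and 497, 532, 246, 249 and 494 CPM in replicate 2. Both were lower in replicate 1 of the *Daxx* lines and higher in H3.3KO and H3.3WT. *Ndrg1*, a stress-induced gene, stood at 34.7, 24.4, 44.4, 33.8 and 50.2 CPM in replicate 1 and 155, 44.8, 24.4, 32.5 and 82.6 CPM in replicate 2. *P4ha1*, a collagen prolyl hydroxylase, stood at 32.5, 15.6, 52.8, 34.5 and 45.7 CPM in replicate 1 and 116, 26.7, 30.9, 37.1 and 53.4 CPM in replicate 2. The gap of both was widest in DaxxKO. *Pkm2* and *Eno1*, named above, were higher in replicate 1 of all 5 lines, so the list held members of both kinds.

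**Figure D5:**
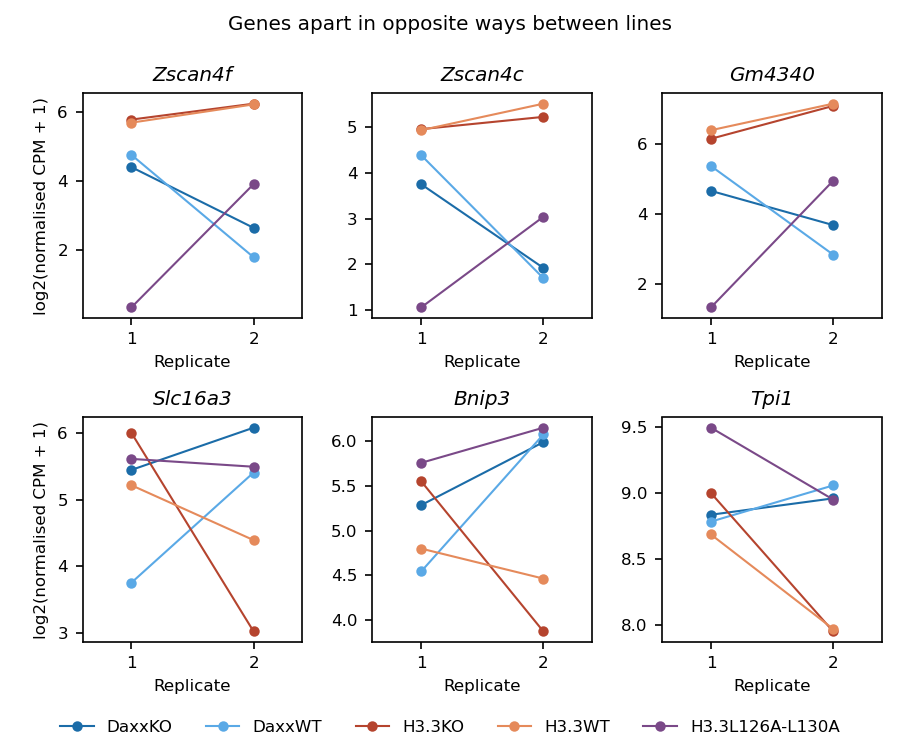
Level of 6 genes, as log2(normalised CPM + 1), in replicate 1 and replicate 2 of each line, 1 line per colour. The *Zscan4f*, *Zscan4c* and *Gm4340* lines slope down in DaxxKO and DaxxWT and up in the 3 H3.3 lines, while *Bnip3* and *Slc16a3* slope up in the *Daxx* lines and down in H3.3KO and H3.3WT.

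Beyond the lists, the widest differences of each line were chosen by their size in that line and are given without a test. Some of these genes were also apart in other lines. DaxxKO was the widest of all pairs. *Txnip*, a glucose-responsive inhibitor of thioredoxin, was measured there at 133 and 1403 CPM in replicates 1 and 2. *Gata2* stood at 1.44 and 34.4 CPM and the stress gene *Gadd45g* at 2.55 and 43.6 in DaxxKO. In DaxxWT, *Txnip*, *Gata2* and *Gadd45g* differed by -1.52, -1.21 and -1.40. In H3.3 L126A-L130A they differed by -1.20, -0.30 and -0.39, in H3.3WT by -0.44, 0.70 and 0.11 and in H3.3KO by 0.07, 1.41 and 0.62. The pluripotency genes *L1td1* (486 and 113 CPM) and *Nr0b1* (57.2 and 14.1) and the Nodal target *Lefty2* (154 and 19.5) were higher in replicate 1 of DaxxKO. Of 28 naive pluripotency genes, 5 were at least 2-fold higher in replicate 1 of this line and 2 lower. Of 14 core pluripotency genes, 2 were higher and 1 lower by this measure. The shares of all genes there were 2.63% higher and 7.36% lower. The stress factor *Ddit3* stood at 10.5 and 101 CPM in DaxxKO. The 27 p53 targets had medians of -0.44, 0.21, -0.14, -0.12 and -0.01. Over the 5 lines 6 of them were lower and 1 higher at an unadjusted p under 0.05, against 13.5% and 15.4% of all genes.

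In H3.3 L126A-L130A, the widest gaps upwards included *Nt5e*, an ectonucleotidase (26.0 and 2.35 CPM), *Bmp4*, a BMP ligand (47.3 and 8.58), and *Porcn*, the acyltransferase that lipidates Wnt proteins (18.3 and 2.73). The amino acid response driven by ATF4 had a median of -0.56 in this line, with 8 of 34 members at least 2-fold lower and 0 higher, against 4.19% and 0.841% of all genes there. In the other lines its medians were 0.11, -0.23, 0.01 and 0.02. With library size alone as the scaling, those of DaxxKO, H3.3KO and H3.3WT became -0.03, -0.003 and -0.05. Over the 5 lines 2 members were higher and 4 lower at an unadjusted p under 0.05, against 15.4% and 13.5% of all genes. *Pycr1*, of proline synthesis, was measured at 42.9, 21.7, 48.8, 54.3 and 17.6 CPM in replicate 1 and 73.3, 37.3, 64.6, 81.5 and 48.4 CPM in replicate 2. *Pycr1* had a log2 fold change of -0.79 ± 0.14 (SE, edgeR adjusted p = 0.0682). *Nupr1*, a stress-induced nuclear protein, stood at 50.8, 23.1, 120.0, 80.9 and 24.9 CPM in replicate 1 and 111, 49.6, 81.1, 81.6 and 73.0 CPM in replicate 2. Its H3.3KO pair was reversed and its H3.3WT pair level. *Mest*, a paternally expressed imprinted gene, stood at 124 and 42.7 CPM in this line.

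In H3.3KO, *Egln3*, an oxygen-sensing prolyl hydroxylase (9.11 and 2.29 CPM), stood with *Slc16a3* and *Bnip3*, and *Dnmt3l*, the cofactor of de novo methylation, was 22.4 and 65.0 CPM against 167 and 87.3 in DaxxWT. *Aspa*, an aspartoacylase, was lower in replicate 1 of H3.3KO (0.566 and 15.6) and of H3.3WT (4.58 and 16.5). H3.3WT was the most even line. Its widest gaps upwards with at least 10 CPM included *Kirrel2* (22.4 and 10.8 CPM), *Trpm1* (34.0 and 14.6) and *Rex2* (136 and 66.2). *Kirrel2* was not particular to this line, with differences of 1.14, 0.50, 1.21, 0.99 and 0.66 over the 5 lines. In DaxxWT, *Cldn7*, a tight junction protein (3.23 and 18.3 CPM), and *Fxyd2*, a regulator of the sodium pump (2.04 and 13.3), were the lower ones.

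Several of the widest gaps belong to genes with near-identical copies, for which expected counts are an allocation. *Gm14430* and *Gm14434* carry the same count in each of the 10 libraries, 948 each in replicate 1 of H3.3WT and 0 in replicate 2. *Amd2* had 0 and 281 counts in H3.3WT, but its sum with *Amd1* was 263 and 219 CPM. *Rps27* had 276 and 1413 counts in replicate 1 of DaxxKO and DaxxWT, 288 in replicate 2 of H3.3WT and 0 in the other libraries, while its sum with the copy *Gm9846* was between 363 and 514 CPM in all 10. These genes were counted in the totals above and their differences are uncertain.

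For 13114 genes with a chromosome in the RefSeq tables, the median difference of each chromosome other than Y lay between -0.06 and 0.13 in every line. The highest medians were 0.133 on chromosome 2 in DaxxWT, 0.131 on chromosome 6 in H3.3WT and 0.126 on chromosome 18 in DaxxKO. Over all genes tested the medians of these lines were 0.011, 0.007 and 0.030. The lowest was -0.062 on the X chromosome in H3.3KO. What sets these chromosomes apart was not tested. The 8 tested genes of the Y chromosome had a median of -0.71 in H3.3WT, -0.09 in H3.3KO and 0.26 in H3.3 L126A-L130A. In H3.3WT, *Eif2s3y* stood at 77.1 and 108 CPM in replicates 1 and 2 and *Ddx3y* at 90.2 and 118. *Zfy1* stood at 3.18 and 11.99 and *Kdm5d* at 1.59 and 4.69 in the same line. In H3.3KO, *Eif2s3y* was at 40.4 and 32.3 CPM and *Ddx3y* at 57.8 and 76.4. The *Daxx* lines had none of these transcripts above 0.0995 CPM. For transcript length, the medians of the short, middle and long genes (3 sets of equal size) lay between -0.03 and 0.06. By GC content, the medians of 3 equal sets from low to high were 0.13, 0.04 and -0.12 in DaxxKO and 0.10, -0.01 and -0.07 in H3.3WT, and lay within 0.05 of 0 in the other lines; its part in the differences was not tested.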

How the data were processed

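PolyA RNA was sequenced from 5 mESC lines, 2 cultures each. The authors aligned reads with Bowtie and estimated abundance with RSEM (mm9 in the submitters' processing notes; versions and annotation are not given in the sources used here), and deposited expected counts per gene, not scaled for depth or length although the deposited table is named for TPM. NEBNext Ultra libraries do not mark strand, so antisense partners cannot be separated.

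Lines and replicate numbers were taken from the sample names. Expected counts were rounded to whole numbers and genes reaching 1 CPM in 2 or more of the 10 libraries were kept (13201 of 20325). Differences between the duplicates of a line are of log2(normalised CPM + 1) with median-of-ratios factors. Over the 5 lines, replicate 1 was compared with replicate 2 by edgeR's quasi-likelihood test (version 4.0.16, R version 4.3.3) with line as a covariate and Benjamini-Hochberg adjustment at 0.05. The fit had a common dispersion of 0.0307 and 4.82 prior degrees of freedom. Standard errors were obtained as |log2 fold change|/√F. DESeq2 (version 1.42.0), limma (version 3.58.1), other scalings, pseudocounts, filters and each line left out were tried, and scripts were tested on simulated data. The interaction test and the list counts with a line left out were chosen after seeing the data.

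Named by rule were the 10 smallest p in each direction, the 5 largest differences in each direction per line with at least 10 CPM, genes 2-fold apart in at least 4 lines, and up to 3 members of each list with at least 3 members 2-fold apart in a line; other genes were named after their values were seen. Some genes that the rule takes are not reported here. The comparison, the gene lists and their members were chosen with earlier results of these data known. Of 30 lists, 29 had members in the table. Promoters, positions, lengths and GC content came by symbol from reference tables of GRCm38, a later build than the authors'. Depth of 15463625 to 21396585 expected counts means that a gene at 1 CPM has about 15 to 21 counts per library, and a count is not free of allocation between near-identical genes.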

Additional observations from a re-analysis of the deposited data

Results flagged for a closer look

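The median difference of the two-cell-like genes was 0.61 in DaxxKO and 0.76 in DaxxWT, while the 3 H3.3 lines lay below 0. The lines of each parental knockout pointed opposite ways, and for the list as a whole this difference was not tested. *Rps27*, whose reads are shared with *Gm9846*, differed between the *Daxx* and the H3.3 lines in the interaction test, with an edgeR adjusted p of 0.016.

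With 5 lines, a single line far from the other 4 was picked out by Dixon's critical value at 95%, which chance meets for about 1 in 20 groups. The median of SRF and YAP targets in DaxxKO was -0.28, apart from the other lines. Among genes, the DaxxKO pair stood out for *Pcna* (0.65), *Apoe* (-1.74) and *Sparc*, a matrix glycoprotein (-0.037), and the H3.3WT pair for *Kdm5d* (-1.14). The H3.3 L126A-L130A pair stood out for *Mest* (1.52) and for *Tuba3a*, an α-tubulin with a near-identical copy (-2.67).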

How the results depend on the processing

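The count of genes over the 5 lines was 0 in edgeR, and stayed 0 with TMM factors, no abundance trend, no pairing by line (839 genes at an unadjusted p under 0.05) or an added 2-fold limit. It was 43 with library size alone, 264 with no filter, 16 at a mean of at least 10 CPM, 1382 in DESeq2 and 1 in limma. With each line left out in turn it lay between 0 and 1404, the highest without H3.3KO and 4 without H3.3WT. The cause was not tested. Counts at least 2-fold apart in DaxxKO, DaxxWT, H3.3KO, H3.3WT and H3.3 L126A-L130A were 2063, 858, 723, 429 and 1464 at a pseudocount of 0.1 CPM, 492, 81, 70, 10 and 151 at 5 CPM, and 569, 123, 94, 20 and 260 at a mean of at least 10 CPM, where fewer genes are tested. The interaction count was 0 at that filter. The correlation of replicate differences was not above 0.1 for every pair of lines, so the main comparison among lines left the replicate number out. Adding it as a block moved the count of genes differing among lines from 4259 to 6760, with all 4259 shared. The paired fit and its fold changes do treat the number as an effect shared by the 5 lines.

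Library size alone shifted the median over all genes from 0.03 to -0.10 in DaxxKO and from 0.00 to -0.11 in H3.3 L126A-L130A, and the list medians moved down with it in these lines, 24 of 145 list medians over the 5 lines changing sign, against 2 with TMM factors, 19 at a mean of at least 10 CPM and 0 at a pseudocount of 0.1 CPM. The mean of the line medians became -0.088 for ribosomal proteins, 0.0059 for the respiratory chain, -0.10 for imprinted genes, 0.078 for S phase and 0.055 for oxidative stress genes. At a mean of at least 10 CPM it was 0.35 for formative, 0.17 for mesoderm and endoderm and 0.045 for imprinted genes. Differences near 1 CPM are limited by depth.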

Other observations

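The other lists stood as follows over the 5 lines. Of 23 interferon-stimulated genes, 2 were higher in replicate 1 and 3 lower at an unadjusted p under 0.05. Of 37 imprinted genes, 7 were higher and 5 lower, and of 27 SRF and YAP targets, which respond to the actin cytoskeleton and cell density, 4 were higher and 6 lower. NRF2 targets and metallothioneins were higher in 8 of 24 cases and lower in 2. Endoplasmic reticulum chaperones were higher in 4 of 21 cases and lower in 2, and replication-dependent histone genes, which lack polyA tails in most transcripts, higher in 4 of 32 cases and lower in 1. Among 19 genes of fibroblasts and their matrix, 1 was higher and 6 lower, among 11 mesoderm and endoderm markers 1 was higher and 2 lower, and among 6 trophoblast markers 2 were lower and 0 higher. Core pluripotency factors were higher in 7 of 14 cases and lower in 1. These counts stand against 15.4% higher and 13.5% lower over all genes tested. Of the 9120 genes at a mean of at least 10 CPM, 1934 were higher and 943 lower, against 2036 and 1784 of all genes tested. Weaker genes thus leaned to the lower side. The median level was 9.81 CPM for the fibroblast and matrix list and 2.10 CPM for the mesoderm and endoderm markers.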
